A study of Homo sapiens with 15 samples.

Results

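Genes of the mesenchymal cytoskeleton and matrix are used as markers of epithelial cells that take on mesenchymal traits. Of these, 10 were followed here: VIM, TAGLN, CALD1, TPM1, TPM2, MYL9, CAV1, LGALS1, FN1 and SPARC. They were chosen by symbol, and all 10 were among the 12995 genes of both deposited tables. The data were 15 QuantSeq 3′ RNA-seq libraries, 3 in each of 5 groups. OKF6, labelled wild type, is a normal oral epithelial line for which no construct was stated. SCC15 and SCC25 derive from oral cancers. Cells of both cancer lines carried Cas9 and, on a second lentivirus, guide RNA to YBX1 that doxycycline induces, and were sorted as a pool of GFP and mCherry double-positive cells. The study lists more than 1 guide sequence, and the labels do not say which was used. The +YBX1 groups were grown without doxycycline (DOXneg in the labels), and the –YBX1 groups received 1 µg/mL doxycycline for 3 days. The labels call the construct a YBX1 knockout (YBX1KO), while the study speaks of knockdown. Keratinocyte serum-free medium was used for OKF6 and SCC25, whereas DMEM with foetal bovine serum was used for SCC15, so for every SCC15 comparison between lines the line and its medium cannot be told apart. No doxycycline-only control was analysed here, so the drug and the loss of YBX1 cannot be told apart either. Libraries of a group are numbered, but no label says that they came from separate cultures, and p-values then measure the spread between these libraries alone.

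In epithelial-mesenchymal transition, cells loosen their keratin-based junctions, replace part of the keratin network with vimentin filaments, build contractile actin bundles and lay down matrix. Vimentin (VIM) is the intermediate filament protein of mesenchymal cells. TAGLN, CALD1, TPM1, TPM2 and MYL9 bind or drive actin, CAV1 coats membrane pits called caveolae, LGALS1 is a secreted galectin, and FN1 and SPARC are secreted into the matrix. In carcinomas some of these genes can be switched on while epithelial genes stay on, a state called partial transition.

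Values are log2 CPM, where CPM is a gene's reads scaled to the normalised size of its library and 0 stands for 1 CPM. Libraries held 4075290 to 6118501 reads on genes, 1 read amounted to 0.138 to 0.226 CPM, and the floor was set at 3 reads, which is at most 0.677 CPM. The targeted gene checked the labels. YBX1 was at 5.11, 5.56 and 6.00 in SCC15 +YBX1 against 3.36, 3.71 and 3.13 in SCC15 –YBX1, and at 6.74, 6.31 and 6.62 in SCC25 +YBX1 against 5.26, 4.70 and 3.65 in SCC25 –YBX1. It was lower in every –YBX1 library, without overlap. Of 12 keratinocyte markers, their summed level was 11018 to 18072 CPM in OKF6 and 6625 to 11474 CPM in SCC25 +YBX1, but 226 to 265 CPM in SCC15 +YBX1. In SCC15 +YBX1, 3 of the 12 (TP63, PKP3 and GRHL2) had at most 3 reads in every library, and CDH1, the epithelial cadherin, had 1 to 14 reads against 1653 to 2446 in OKF6. The basal keratin genes KRT5 and KRT14 had 2 to 53 and 4 to 20 reads in SCC15 +YBX1, against 30682 to 64015 and 6302 to 23404 in OKF6. Such levels are low for a squamous carcinoma line. The study classed SCC15 as mesenchymal-like, and its western blot of SCC15 showed no CDH1 protein. From RNA it also reported mesenchymal markers as upregulated in SCC15, in a figure whose genes its text does not name. Of the 10 genes followed here, 8 were lower and 1 was higher in SCC15 +YBX1 than in SCC25 +YBX1. The identity of the SCC15 line was not tested, and every SCC15 value below is that of the libraries labelled SCC15. The markers with the most reads in SCC15 +YBX1 were KRT18, DSP and JUP, with 280 to 351, 513 to 608 and 473 to 637 reads. Markers of other cell types were sparse, since 2 of 10 fibroblast, 2 of 7 smooth muscle and 0 of 6 endothelial genes were in the tables. Summed fibroblast markers were 29.1 to 44.5 CPM in OKF6, 11.3 to 30.2 in SCC15 +YBX1 and 21.9 to 97.9 in SCC25 +YBX1, and smooth muscle markers 57.3 to 91.5, 8.60 to 11.8 and 46.3 to 62.4 CPM. Their part in the results was not tested. OKF6 replicate 1 stood apart from its group. The chi-square over genes, divided by its degrees of freedom, was 80.8 and 79.3 against the other OKF6 libraries and 26.1 between those. By this measure other libraries stood apart too, namely SCC15 –YBX1 replicate 1 (28.6 and 28.3 against 3.99) and SCC25 –YBX1 replicate 2 (43.3 and 44.7 against 22.7). For SCC15 +YBX1 replicate 1 the values were 20.2 and 18.5 against 9.24. The libraries are bulk RNA, in which fewer cells of a kind and less RNA per cell cannot be told apart.

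Promoters are shown for 4 genes because their patterns across the lines part most clearly: FN1 and CAV1 were low in SCC15 alone, SPARC was low in SCC25 alone, and VIM was highest in SCC25. Each runs from 250 bases before to 50 after the RefSeq start (GRCh38.p14), 5′ to 3′ on the gene's strand. Capitals mark the GC box, GGGCGG or its complement CCGCCC, a binding site of Sp1-type factors. VIM lies at chr10:17227991-17228290 on the plus strand, FN1 at chr2:215436019-215436318 on the minus strand, CAV1 at chr7:116524786-116525085 on the plus strand and SPARC at chr5:151686866-151687165 on the minus strand.
FN1: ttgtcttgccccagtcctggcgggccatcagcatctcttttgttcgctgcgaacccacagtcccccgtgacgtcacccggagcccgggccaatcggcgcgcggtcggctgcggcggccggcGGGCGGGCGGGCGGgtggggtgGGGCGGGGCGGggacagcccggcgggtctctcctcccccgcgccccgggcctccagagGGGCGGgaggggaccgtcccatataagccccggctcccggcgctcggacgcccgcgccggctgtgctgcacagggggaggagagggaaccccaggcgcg
CAV1: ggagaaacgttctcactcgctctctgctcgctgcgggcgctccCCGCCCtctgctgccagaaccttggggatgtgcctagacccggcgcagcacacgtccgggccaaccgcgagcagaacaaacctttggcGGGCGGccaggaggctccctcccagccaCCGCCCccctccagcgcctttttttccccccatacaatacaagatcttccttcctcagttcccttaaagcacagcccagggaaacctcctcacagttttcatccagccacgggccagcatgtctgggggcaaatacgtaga
VIM: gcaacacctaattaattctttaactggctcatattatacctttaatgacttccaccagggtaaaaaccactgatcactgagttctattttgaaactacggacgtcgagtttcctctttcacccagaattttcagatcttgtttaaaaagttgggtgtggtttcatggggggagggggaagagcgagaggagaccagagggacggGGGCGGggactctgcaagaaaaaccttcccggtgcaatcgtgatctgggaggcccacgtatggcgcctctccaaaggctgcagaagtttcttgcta
SPARC: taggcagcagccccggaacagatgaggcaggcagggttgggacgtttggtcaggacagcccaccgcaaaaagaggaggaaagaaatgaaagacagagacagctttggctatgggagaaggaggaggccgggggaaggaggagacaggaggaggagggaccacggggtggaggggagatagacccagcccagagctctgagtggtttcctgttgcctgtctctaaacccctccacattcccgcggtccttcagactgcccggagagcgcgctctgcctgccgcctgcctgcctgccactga
Of the 10 genes, 7 had an entry in the promoter table, and TAGLN, MYL9 and LGALS1 were not matched. A GC box on either strand stood in 6 of the 7, against 45.0% of all 35116 promoters of the table. SPARC was the promoter without it. The CArG box bound by serum response factor (in 1.29% of all promoters), the AP-1 motif TGANTCA (7.71%), TATAAA (11.5%) and the E-box CACCTG (20.6%), each searched on both strands, were in 0 of the 7. The promoters of FN1 and VIM differed in composition, with 76.7% GC and 38 CpG against 48.0% GC and 10 CpG. CAV1 had 61.7% GC and 18 CpG, and SPARC 61.3% GC and 11 CpG, where the median promoter had 58.7% and 14. The entry for TPM1 starts 5742 bases from the start of its main GENCODE transcript. These matches describe letters in a window and no binding was measured.

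Between the lines, the 10 genes did not move as a block. Nor did they follow their name, since CAV1, LGALS1, CALD1 and SPARC had their highest mean in OKF6, the normal epithelial line. Against SCC25 +YBX1, SCC15 +YBX1 had 8 of the 10 lower and SPARC higher, while CALD1 did not pass the test (limma on the deposited log2 CPM, Benjamini-Hochberg over 12995 genes, adjusted p under 0.05). Against OKF6, 7 were lower in SCC15 and VIM was higher. SCC25 against OKF6 had VIM, TAGLN and MYL9 higher and SPARC and CALD1 lower. The background was high: of all genes, 20.0% were called higher and 23.6% lower in SCC15 than in SCC25, 26.9% and 23.4% in SCC15 than in OKF6, and 18.9% and 11.3% in SCC25 than in OKF6. The last split, 2450 genes higher and 1473 lower, was 2006 and 1837 after quantile normalization. In SCC15 against SCC25, 2602 genes were higher and 3070 lower, but the larger side turned under other scalings. Equal library medians gave 3045 higher against 2685 lower, and quantile normalization 3430 against 2767. In SCC15 against OKF6 equal medians moved the split from 3497 and 3037 to 3981 and 2662. The median log2 change of the 10 genes was -3.42 for SCC15 minus SCC25, -2.94 for SCC15 minus OKF6 and 0.52 for SCC25 minus OKF6, beside -0.01, 0.10 and 0.13 over all genes. With MYL9, which had 0 reads in SCC15, set to its bound, the median for SCC15 minus OKF6 was -2.15, and the other medians kept their values. Libraries did not overlap for 9, 9 and 6 of the 10 genes, where this held for 66.6%, 54.4% and 43.3% of all genes.

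**Figure D1:**
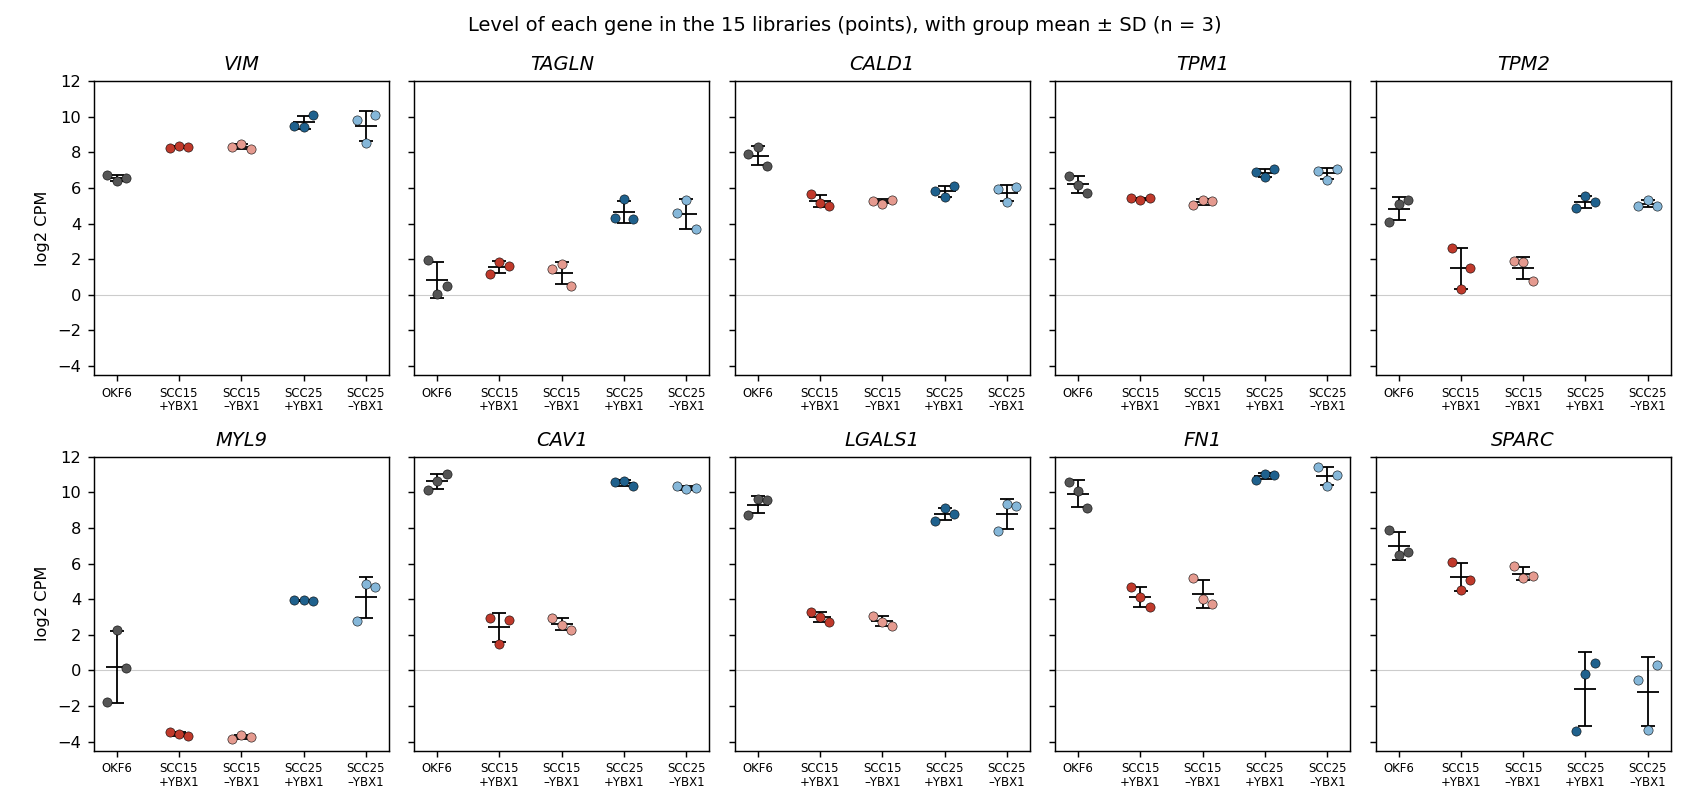
Level of each of the 10 genes in log2 CPM (vertical axes, the same in every panel) in the 15 libraries, by group, with points for libraries and bars for the group mean ± SD (n = 3). The +YBX1 and –YBX1 libraries of a line lie together in every panel, while CAV1, LGALS1 and FN1 are low in SCC15 and SPARC is near the floor in SCC25.

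The intermediate filament gene VIM (chr10:17228241-17237593 in hg38, plus strand) rose stepwise across the lines. Its level was 6.75, 6.41 and 6.55 log2 CPM in OKF6, 8.23, 8.37 and 8.28 in SCC15 +YBX1, and 9.50, 9.41 and 10.12 in SCC25 +YBX1. No library of a line overlapped another line. VIM was 3.30-fold higher in SCC15 than in OKF6 (log2 change 1.72, SE 0.21, adjusted p = 5.41e-05, limma) and 8.60-fold higher in SCC25 than in OKF6 (3.10, SE 0.21, adjusted p = 6.60e-06). SCC15 was 2.60-fold below SCC25 (-1.38, SE 0.21, adjusted p = 0.000353). Thus SCC25, which kept its keratinocyte markers, had the higher VIM level of the cancer lines. Among other intermediate filament genes outside the keratins, 10 of 13 were tested. Of these, 4 were higher and 2 lower in SCC15 than in SCC25, 5 and 2 in SCC15 than in OKF6, and 4 and 1 in SCC25 than in OKF6. The list median was 1.06, 3.19 and 0.55, and became 1.79 and 0.00 in the OKF6 comparisons with genes at 0 reads set to their bound. The lamin genes parted: LMNB1 was higher in SCC15 than in SCC25 (log2 change 1.70, SE 0.31, adjusted p = 0.00129), while LMNA was lower (-3.37, SE 0.75, adjusted p = 0.00406). PLEC, whose product plectin ties filaments to junctions, was also lower in SCC15 than in SCC25 (-3.45, SE 0.61, adjusted p = 0.000905) and than in OKF6 (-4.75, SE 0.61, adjusted p = 7.18e-05).

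Among the actin-binding genes, TAGLN, which encodes transgelin (SM22-alpha), stood out in SCC25. It was at 1.97, 0.02 and 0.52 log2 CPM in OKF6 (20, 4 and 8 reads), 1.19, 1.86 and 1.59 in SCC15 +YBX1 (12, 21 and 19 reads) and 4.32, 5.37 and 4.25 in SCC25 +YBX1 (106, 210 and 91 reads). OKF6 and SCC15 overlapped, and SCC25 lay above both. TAGLN was 14.0-fold higher in SCC25 than in OKF6 (log2 change 3.81, SE 0.57, adjusted p = 0.000732) and 8.61-fold lower in SCC15 than in SCC25 (-3.11, SE 0.57, adjusted p = 0.00119). The change of SCC15 against OKF6 was 0.71 (SE 0.57, adjusted p = 0.326), and it was -0.0092 after quantile normalization of the 9 libraries and 1.27 (adjusted p = 0.0476) without OKF6 replicate 1. The 3′ end of TAGLN (chr11:117199370-117207464, plus strand) is a shared sequence: 87.2% of its 75-base pieces mapped as well to an unprocessed pseudogene at chr11:117137119-117137563, and its last exon overlaps PCSK7 on the other strand. An annotated gene without a symbol overlaps this exon on the same strand. Whether the counting used strand or kept reads with several positions is not given in the sources used here, so the TAGLN values may hold reads of these loci.

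CALD1 encodes caldesmon, which binds actin filaments. Its level was highest in OKF6, at 7.88, 8.29 and 7.24 log2 CPM. It was 5.65, 5.17 and 5.00 in SCC15 +YBX1 and 5.82, 5.50 and 6.098 in SCC25 +YBX1. The cancer lines overlapped each other and lay below OKF6. CALD1 was 5.77-fold lower in SCC15 than in OKF6 (log2 change -2.53, SE 0.29, adjusted p = 3.21e-05) and 3.98-fold lower in SCC25 than in OKF6 (-1.99, SE 0.29, adjusted p = 0.000625). It was the member that did not separate the cancer lines (-0.53, SE 0.29, adjusted p = 0.161). Its last exon (chr7:134968340-134970729) overlaps a long noncoding RNA gene on the other strand.

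The tropomyosin genes TPM1 and TPM2 encode coiled coils that lie along actin filaments, and both were lowest in SCC15. TPM1 was at 6.68, 6.18 and 5.73 log2 CPM in OKF6, 5.43, 5.29 and 5.41 in SCC15 +YBX1, and 6.89, 6.62 and 7.07 in SCC25 +YBX1. SCC15 lay below every other library, while OKF6 and SCC25 overlapped. TPM1 was 2.80-fold lower in SCC15 than in SCC25 (log2 change -1.48, SE 0.24, adjusted p = 0.000573) and 1.77-fold lower than in OKF6 (-0.82, SE 0.24, adjusted p = 0.0163). The latter call was lost with library medians set equal (-0.66, adjusted p = 0.05005) and without SCC15 +YBX1 replicate 2 (-0.78, adjusted p = 0.0537). TPM2 had a wider gap. Its level was 4.10, 5.11 and 5.30 in OKF6, 2.61, 0.34 and 1.51 in SCC15 +YBX1 (33, 7 and 18 reads), and 4.87, 5.56 and 5.22 in SCC25 +YBX1. TPM2 was 13.3-fold lower in SCC15 than in SCC25 (-3.73, SE 0.54, adjusted p = 0.000240) and 10.2-fold lower than in OKF6 (-3.35, SE 0.54, adjusted p = 0.000394). SCC25 minus OKF6 was 0.66 for TPM1 (SE 0.24, adjusted p = 0.0627) and 0.38 for TPM2 (SE 0.54, adjusted p = 0.628). Without OKF6 replicate 1 the TPM1 difference was called (0.90, adjusted p = 0.005003).

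MYL9, the regulatory light chain of smooth muscle and non-muscle myosin, was found in SCC25, had few reads in OKF6 and was not detected in SCC15. It had 1, 21 and 6 reads in OKF6, 0 reads in each SCC15 library, and 81, 77 and 70 reads in the SCC25 +YBX1 libraries. In SCC25 +YBX1 the levels were 3.94, 3.93 and 3.87 log2 CPM, and in OKF6 they ran from -1.80 to 2.28. Against the floor of 3 reads in a library, MYL9 in SCC15 +YBX1 was at least 27.6-fold below the mean of SCC25 +YBX1 (adjusted p = 3.87e-05 for the fitted change, limma). It was at least 2.11-fold below the mean of OKF6 (adjusted p = 0.00344 for the fitted change, limma). OKF6 replicate 1, with 1 read, was itself under that floor, so the OKF6 bound holds for the group mean only. MYL9 was 13.1-fold higher in SCC25 than in OKF6 (log2 change 3.71, SE 0.85, adjusted p = 0.00780). That size rested on OKF6, and was 2.71 without OKF6 replicate 1 and 4.75 without OKF6 replicate 2. The same libraries moved the fitted change of SCC15 against OKF6 from -3.78 to -4.78 and -2.74. The last exon of MYL9 (chr20:36549077-36551447) overlaps DLGAP4-AS1 on the other strand.

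The wider actin and myosin apparatus, for which 26 of 28 listed genes were tested, had 3 genes higher and 19 lower in SCC15 than in SCC25, with a list median of -1.29. Against OKF6, SCC15 had 5 higher and 16 lower (median -0.85), and SCC25 had 6 higher and 3 lower (median 0.28). ACTN1, which encodes the actin crosslinker alpha-actinin-1, was lower in SCC15 than in SCC25 (log2 change -3.58, SE 0.19, adjusted p = 2.89e-07) and than in OKF6 (-3.73, SE 0.19, adjusted p = 1.97e-07). TMSB10, which encodes an actin monomer-binding thymosin, was lower in SCC15 than in SCC25 (-3.07, SE 0.33, adjusted p = 2.87e-05) and higher in SCC25 than in OKF6 (1.297, SE 0.33, adjusted p = 0.0142). MYH10, a non-muscle myosin heavy chain, went the other way, with a change of 1.88 (SE 0.18, adjusted p = 1.01e-05) in SCC15 against SCC25 and 1.72 (SE 0.18, adjusted p = 1.46e-05) against OKF6. In SCC15 minus OKF6, CNN3 was called higher (0.50, SE 0.19, adjusted p = 0.0484) and MYL12B lower (-2.59, SE 0.27, adjusted p = 1.43e-05). In SCC25 minus OKF6, PDLIM7 was higher (1.60, SE 0.18, adjusted p = 0.000109), and PDLIM5 (-2.10, SE 0.18, adjusted p = 2.13e-05) and PALLD, which encodes palladin (-1.26, SE 0.21, adjusted p = 0.00123), were lower.

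Serum response factor and its MRTF partners drive many actin genes. Of 20 listed genes of this system 18 were tested, of which 1 was higher and 13 lower in SCC15 than in SCC25 (median -2.13), 1 and 11 in SCC15 than in OKF6 (median -1.72), and 3 and 1 in SCC25 than in OKF6 (median 0.40). CCN1, an early target and secreted matrix ligand, was lower in SCC15 than in SCC25 (log2 change -2.65, SE 0.28, adjusted p = 2.67e-05) and than in OKF6 (-2.83, SE 0.28, adjusted p = 1.22e-05). FHL1 was the gene called higher in SCC15 than in SCC25 (1.48, SE 0.32, adjusted p = 0.00348), and it was lower in SCC25 than in OKF6 (-1.62, SE 0.32, adjusted p = 0.00382). CNN2, a calponin, was higher in SCC25 than in OKF6 (1.22, SE 0.39, adjusted p = 0.0359). This list shares ACTA2, CNN1, CNN2, VCL, TPM4, MYH9 and FLNA with the actin and myosin list. It also shares CCN1 and CCN2 with the matrix list and ITGA5 with the fibronectin receptor list. The counts of these lists are therefore not independent.

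**Figure D2:**
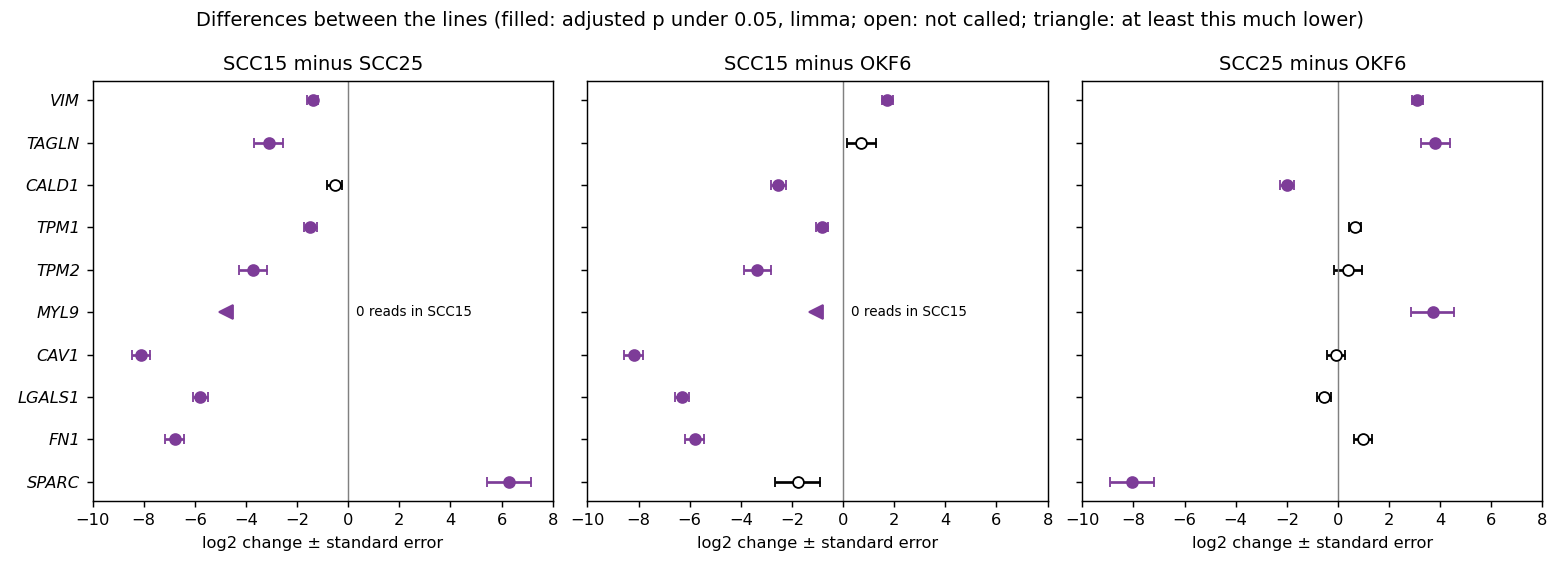
Difference in log2 CPM between lines for the 10 genes (horizontal axes), with bars for the standard error of limma, filled points for adjusted p under 0.05 and open points for genes not called. Triangles give the bound for MYL9, which had 0 reads in SCC15. CAV1 lies at -8.11 and -8.20 in the SCC15 panels and at -0.08 in SCC25 minus OKF6, and SPARC lies at 6.28 in SCC15 minus SCC25.

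CAV1 encodes caveolin-1, the coat protein of caveolae. It gave the largest fitted difference of the 10 genes in both SCC15 comparisons. Its level was 10.15, 10.66 and 11.02 log2 CPM in OKF6 and 10.60, 10.65 and 10.34 in SCC25 +YBX1, but 2.95, 1.48 and 2.81 in SCC15 +YBX1 (42, 16 and 45 reads). OKF6 and SCC25 overlapped, and SCC15 lay far below both. CAV1 was 277-fold lower in SCC15 than in SCC25 (log2 change -8.11, SE 0.36, adjusted p = 9.60e-08) and 293-fold lower than in OKF6 (-8.20, SE 0.36, adjusted p = 9.20e-08). SCC25 minus OKF6 was -0.08 (SE 0.36, adjusted p = 0.891). Other caveola genes shared the low level in SCC15: of 8 listed genes 6 were tested, and 5 of them were lower in SCC15 than in SCC25 (list median -4.89) and 5 than in OKF6 (median -5.01). CAV2, which forms oligomers with caveolin-1, was lower in SCC15 than in SCC25 (-4.94, SE 0.19, adjusted p = 3.75e-08) and than in OKF6 (-5.73, SE 0.19, adjusted p = 1.87e-08). CAVIN1, which shapes the caveolar coat, was lower in SCC15 than in SCC25 (-5.07, SE 0.40, adjusted p = 2.79e-06). EHD2, an ATPase of the caveolar neck, was lower in SCC15 than in OKF6 (-5.13, SE 0.37, adjusted p = 1.21e-06). That size rests on few reads, since EHD2 had at most 17 in SCC15. Between SCC25 and OKF6, 1 gene of the list was higher and 1 lower (median -0.05), namely PACSIN3 (0.78, SE 0.18, adjusted p = 0.00809) and CAV2 (-0.80, SE 0.19, adjusted p = 0.00854).

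LGALS1 encodes galectin-1, a lectin that binds beta-galactosides on matrix and cell surface glycoproteins. Its level was 8.75, 9.60 and 9.59 log2 CPM in OKF6, 3.28, 3.00 and 2.71 in SCC15 +YBX1, and 8.42, 9.11 and 8.81 in SCC25 +YBX1. SCC15 lay below every library of the other lines, which overlapped each other. LGALS1 was 54.9-fold lower in SCC15 than in SCC25 (log2 change -5.78, SE 0.28, adjusted p = 1.43e-07) and 79.6-fold lower than in OKF6 (-6.31, SE 0.28, adjusted p = 9.20e-08). SCC25 minus OKF6 was -0.54 (SE 0.28, adjusted p = 0.170), and without OKF6 replicate 1 it was -0.82 (adjusted p = 0.0165). Of 9 listed genes, which are other galectins and the galectin-binding protein gene LGALS3BP, 4 were in the table and all 4 were lower in SCC15 than in SCC25 (median -5.35) and than in OKF6 (median -5.61, or -5.59 with a gene at 0 reads set to its bound). LGALS3 had at most 9 reads in SCC15 and gave a change of -5.99 (SE 0.24, adjusted p = 5.62e-08) against SCC25 and of -6.104 (SE 0.24, adjusted p = 4.65e-08) against OKF6. LGALS3BP gave -4.70 (SE 0.52, adjusted p = 3.22e-05) and -5.08 (SE 0.52, adjusted p = 1.38e-05). It had at most 27 reads in SCC15, so the sizes for LGALS3 and LGALS3BP rest on few reads.

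The matrix genes FN1 and SPARC were called in opposite directions between SCC15 and SCC25, while the means of both were lower in SCC15 than in OKF6. FN1 encodes fibronectin, the fibril-forming glycoprotein that integrins hold. Its level was 10.60, 10.05 and 9.14 log2 CPM in OKF6, 4.69, 4.10 and 3.58 in SCC15 +YBX1 (141, 101 and 77 reads), and 10.71, 11.05 and 10.97 in SCC25 +YBX1 (8892, 10754 and 9649 reads). Among these libraries no line overlapped another. With the 15 libraries quantile normalised together, SCC25 +YBX1 and OKF6 did overlap. FN1 was 111-fold lower in SCC15 than in SCC25 (log2 change -6.79, SE 0.37, adjusted p = 2.89e-07) and 56.1-fold lower than in OKF6 (-5.81, SE 0.37, adjusted p = 5.10e-07). The change of SCC25 against OKF6 was 0.98 (SE 0.37, adjusted p = 0.0663). That change was called without OKF6 replicate 1 (1.31, adjusted p = 0.00967), with voom weights (0.98, adjusted p = 0.0436) and with the replicate number as a block (0.98, adjusted p = 0.0408). Of the 75-base pieces at the FN1 3′ end, 6.98% mapped as well to a stretch of chromosome X with no annotated gene.

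SPARC encodes osteonectin, a collagen-binding matricellular protein. Its level was 7.91, 6.46 and 6.65 log2 CPM in OKF6 (1255, 390 and 597 reads) and 6.06, 4.53 and 5.10 in SCC15 +YBX1 (367, 137 and 222 reads). SCC25 +YBX1 had 0, 4 and 6 reads, or -3.41, -0.17 and 0.43 log2 CPM. The lines did not overlap. SPARC was 77.9-fold higher in SCC15 than in SCC25 (log2 change 6.28, SE 0.87, adjusted p = 0.000174) and 267-fold lower in SCC25 than in OKF6 (-8.06, SE 0.87, adjusted p = 8.83e-05). These sizes rest on few reads in SCC25. With 2 reads added to each count in place of 0.5 they were 5.39 and -7.16, without SCC25 +YBX1 replicate 1 they were 5.10 and -6.88, and without SCC25 +YBX1 replicate 3 they were 7.03 and -8.80. SCC15 minus OKF6 was -1.78 (SE 0.87, adjusted p = 0.114). The fit pools the spread of the 3 lines, and the SD of SPARC was 2.07 in SCC25 +YBX1 against 0.77 in SCC15 +YBX1 and 0.79 in OKF6. With the groups compared alone the adjusted p was 0.0183, and without SCC25 +YBX1 replicate 1 it was 0.0136. It was 0.00829 with voom weights and 0.0256 with 2 reads added.

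Other secreted matrix glycoproteins were tested for 22 of 26 listed genes. In SCC15, 4 were higher and 13 lower than in SCC25 (median -2.38, or -2.22 with genes at 0 reads set to their bound), and 8 were higher and 8 lower than in OKF6 (median 0.09, or -0.07 with bounds). In SCC25, 10 were higher and 4 lower than in OKF6 (median 1.07, or 0.98 with bounds). THBS1, which encodes thrombospondin-1, had at most 4 reads in SCC15 against up to 3832 in SCC25 and 2475 in OKF6 (lower in SCC15, adjusted p = 1.78e-07 and 2.63e-07). TGFBI had at most 14 reads in SCC15 against up to 4897 in SCC25 and 8582 in OKF6 (lower in SCC15, adjusted p = 4.98e-06 and 2.14e-06). No fold is given for either gene at so few reads. FBLN1, which encodes fibulin-1, was higher than in OKF6 in SCC15 (1.07, SE 0.31, adjusted p = 0.0148) and in SCC25 (0.91, SE 0.31, adjusted p = 0.0474), and EFEMP1 was higher in SCC25 than in OKF6 (1.68, SE 0.35, adjusted p = 0.00485).

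Fibronectin is held by integrins and syndecans, and of 12 genes of these receptors and their adaptors 11 were tested. None was higher in SCC15, and 10 were lower than in SCC25 (median -2.72) and 9 lower than in OKF6 (median -1.81). ITGA5, the alpha subunit of the main fibronectin receptor, was lower in SCC15 than in SCC25 (log2 change -4.87, SE 0.24, adjusted p = 1.78e-07) and higher in SCC25 than in OKF6 (2.03, SE 0.24, adjusted p = 0.000166). It was lower in SCC15 than in OKF6 as well (-2.84, SE 0.24, adjusted p = 3.58e-06). SDC1 (syndecan-1) was lower in SCC15 than in SCC25 (-4.92, SE 0.30, adjusted p = 5.76e-07) and than in OKF6 (-5.23, SE 0.30, adjusted p = 3.19e-07), and SDC4 lower than in OKF6 (-3.70, SE 0.26, adjusted p = 9.88e-07). SCC25 against OKF6 had 3 of the 11 higher and 1 lower (median 0.37), with PXN, which encodes paxillin, at 1.24 (SE 0.30, adjusted p = 0.0101) and ITGAV at -0.61 (SE 0.18, adjusted p = 0.0269).

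Across the 3 lines the genes thus gave different orders. From high to low the mean level ran SCC25, SCC15, OKF6 for VIM and TAGLN, SCC25, OKF6, SCC15 for FN1, TPM1, TPM2 and MYL9, OKF6, SCC25, SCC15 for CAV1, LGALS1 and CALD1, and OKF6, SCC15, SCC25 for SPARC. Neighbours in these orders that overlapped were SCC15 and OKF6 for TAGLN, SCC25 and SCC15 for CALD1, and OKF6 and SCC25 for TPM1, TPM2, CAV1 and LGALS1. The order of OKF6 and the +YBX1 groups was the same for the 10 genes with library medians set equal. With the 15 libraries quantile normalised together it was also the same, but TAGLN was then only 0.01 higher in SCC15 +YBX1 than in OKF6. It turned to -0.0092 when the 9 libraries of the line comparison were quantile normalised alone, so no order of these lines can be read for TAGLN. Setting medians equal moved the median change of all genes from -0.01 to 0.14 for SCC15 minus SCC25, from 0.10 to 0.26 for SCC15 minus OKF6 and from 0.13 to 0.14 for SCC25 minus OKF6. Quantile normalization moved them to 0.17, 0.14 and -0.05.

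YBX1 knockdown, by contrast, left the 10 genes within the spread of the libraries. The question was whether loss of YBX1, a cold-shock domain protein that binds RNA and DNA, changes mesenchymal genes in either line. The +YBX1 libraries are the ones already used in the comparison of the lines. None of the 10 genes passed the adjusted threshold or an unadjusted p under 0.05 in either line (limma), nor did any with voom weights pass the adjusted threshold. Of all genes, 0% were called at the adjusted threshold in SCC25 and 0% in SCC15, and 3.09% and 2.32% had an unadjusted p under 0.05 (401 and 302 genes). YBX1 itself had a log2 change of -2.01 (SE 0.35, adjusted p = 0.290) in SCC25 and -2.15 (SE 0.35, adjusted p = 0.326) in SCC15, and in the mean of both lines it was the single gene called, which makes 0.00770% of all genes (-2.08, adjusted p = 0.0103). At an unadjusted p under 0.05 the mean of both lines held 2.15% of all genes and 0 of the 10. For the difference between the lines in the knockdown effect, 0% of all genes were called, 2.26% had an unadjusted p under 0.05, and 0 of the 10 genes did. No gene of the 10 had –YBX1 and +YBX1 libraries without overlap, where 7.31% of all genes did in SCC25 and 7.04% in SCC15. After quantile normalization of the 15 libraries CAV1 no longer overlapped in SCC25, with –YBX1 lower by a mean of 0.25.

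**Figure D3:**
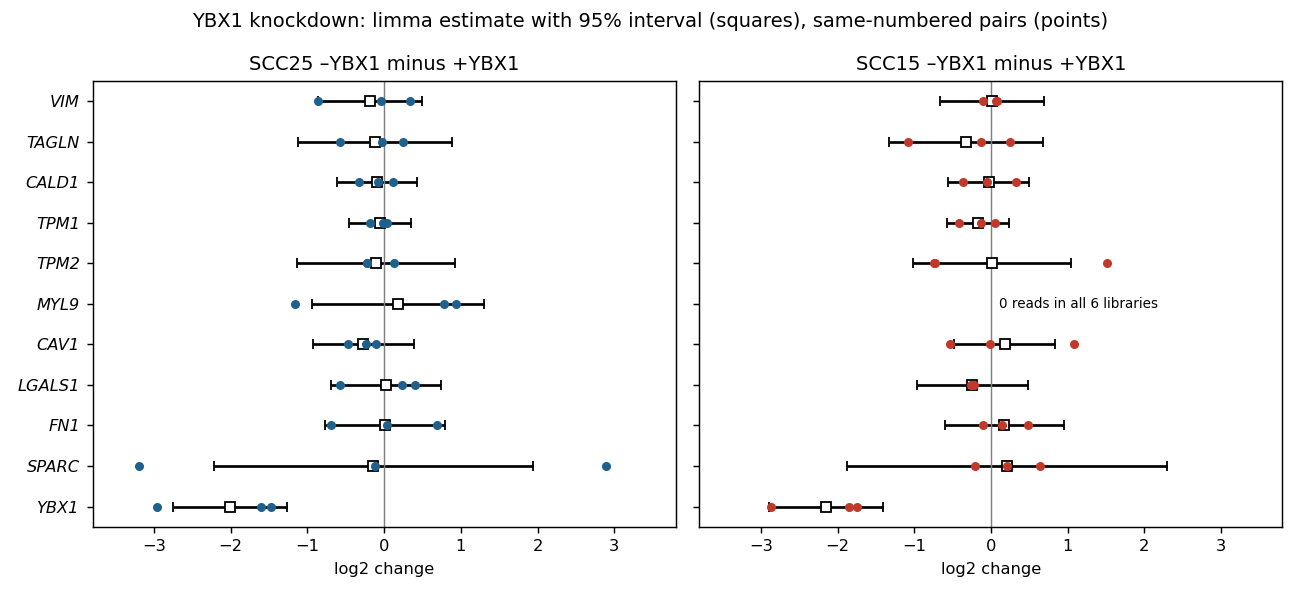
Change in log2 CPM with YBX1 knockdown in SCC25 and SCC15 (horizontal axes), with squares and bars for the limma estimate and its 95% interval and points for the 3 same-numbered pairs of libraries. Every interval of the 10 genes spans 0, and YBX1 lies at -2.01 and -2.15. MYL9 had 0 reads in all 6 SCC15 libraries.

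The 95% intervals of the fit without pairing give the changes that these libraries leave possible. They were narrowest for TPM1, at -0.45 to 0.35 on the log2 scale in SCC25 and -0.57 to 0.23 in SCC15. CALD1 ran from -0.62 to 0.43 in SCC25 and -0.56 to 0.50 in SCC15, and VIM from -0.86 to 0.49 and -0.67 to 0.69. For the genes with few reads the intervals were wide, and for SPARC they ran from -2.22 to 1.94 in SCC25 and -1.87 to 2.29 in SCC15. The SPARC pairs of SCC25 lay at 2.89, -3.19 and -0.11, with 0, 4 and 6 reads in +YBX1 against 3, 0 and 6 in –YBX1. No direction can be read from such counts. Same-numbered libraries of a line deviated together, and with these pairs as a block, a fit added after the data were seen, most intervals were narrower. In SCC25 they were then -0.63 to 0.26 for VIM, -0.48 to 0.51 for FN1, -0.81 to 0.27 for CAV1 and -0.39 to 0.44 for LGALS1. In SCC15 they were -0.43 to 0.45 for VIM, -0.32 to 0.67 for FN1, -0.36 to 0.72 for CAV1 and -0.66 to 0.17 for LGALS1. Each still spanned 0. For MYL9 in SCC25 the interval was not narrower, at -0.95 to 1.33.

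VIM was at 9.84, 8.54 and 10.08 log2 CPM in SCC25 –YBX1 and at 8.29, 8.45 and 8.17 in SCC15 –YBX1, with changes of -0.19 (SE 0.31) and 0.01 (SE 0.31). FN1 was at 11.40, 10.36 and 11.00 in SCC25 –YBX1 and at 5.17, 3.99 and 3.73 in SCC15 –YBX1, with changes of 0.01 (SE 0.36; interval -0.77 to 0.79) and 0.17 (SE 0.36; -0.61 to 0.95). Both overlapped their +YBX1 libraries. CAV1 was at 10.36, 10.17 and 10.23 in SCC25 –YBX1 and at 2.94, 2.55 and 2.28 in SCC15 –YBX1. In SCC25 all 3 CAV1 pairs were lower, by -0.23, -0.47 and -0.11, yet the change of -0.27 (SE 0.31; -0.93 to 0.39) did not pass the test. LGALS1 was lower in all 3 SCC15 pairs, by -0.25, -0.26 and -0.22, and the change was -0.24 (SE 0.34; -0.96 to 0.48). In SCC25 its pairs were -0.58, 0.24 and 0.41.

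MYL9 in SCC25 –YBX1 had 34, 150 and 131 reads, or 2.78, 4.87 and 4.66 log2 CPM, with the +YBX1 libraries inside that range. Its change was 0.19 (SE 0.52; -0.93 to 1.31), and its pairs lay at -1.16, 0.93 and 0.79. TAGLN was at 4.57, 5.34 and 3.68 in SCC25 –YBX1 (change -0.12, SE 0.47) and at 1.43, 1.72 and 0.51 in SCC15 –YBX1 (change -0.32, SE 0.47). The change of TPM2 was -0.10 (SE 0.48) in SCC25 and 0.02 (SE 0.48) in SCC15, where its pairs spread from -0.74 to 1.52. When each library was left out in turn, CAV1 in SCC25 and TPM1 and LGALS1 in SCC15 kept their sign throughout, and the other fitted estimates did not. MYL9 in SCC15, at 0 reads in all 6 libraries, had none. In the library SCC25 –YBX1 replicate 2 the 10 most abundant genes took 16.2% of the reads, the highest share of the 15 libraries, and the lowest was 8.43%. Without it the change of VIM in SCC25 was 0.29 and that of SPARC 0.95, and none of the 10 genes was called. None of the genes in the 7 related lists was called with knockdown in either line. Some lists share genes, so a gene can count in several of them. The numbers with an unadjusted p under 0.05 were 3 of 26 actin and myosin genes, 1 of 18 SRF-MRTF genes and 1 of 22 matrix genes in SCC25, and 1 of 18 SRF-MRTF genes, 1 of 6 caveola genes and 1 of 11 fibronectin receptor genes in SCC15.

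Split by source, 88.5% (TAGLN) to 99.1% (CAV1) of the sum of squares of each gene over the 15 libraries lay between the 3 lines. Knockdown within a line took at most 0.578% (TPM1), and the rest, from 0.866% for CAV1 to 11.1% for TAGLN, lay between libraries of a group. The correlations between the genes describe the same pattern, and are given without a test because the 15 libraries come from 3 lines. Over the 15 libraries FN1, CAV1, TPM2 and LGALS1 had Pearson's r of 0.946 to 0.99 with each other. SPARC had r of -0.91 with TAGLN, -0.79 with MYL9 and -0.76 with VIM. CALD1 and VIM had r of -0.59. After the 5 group means were taken out, r was 0.03 for FN1 with CAV1 and -0.15 for FN1 with LGALS1, but 0.85 for CAV1 with TPM2 and 0.71 for MYL9 with LGALS1. VIM with SPARC then had r of 0.72. The r values of 0.85, 0.71 and 0.72 were the highest after this step, and each includes a gene with few reads in a group. SPARC had 0 to 6 reads in SCC25, MYL9 1 to 21 in OKF6 and TPM2 7 to 33 in SCC15 +YBX1. How far such counts shape these r values was not tested.

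**Figure D4:**
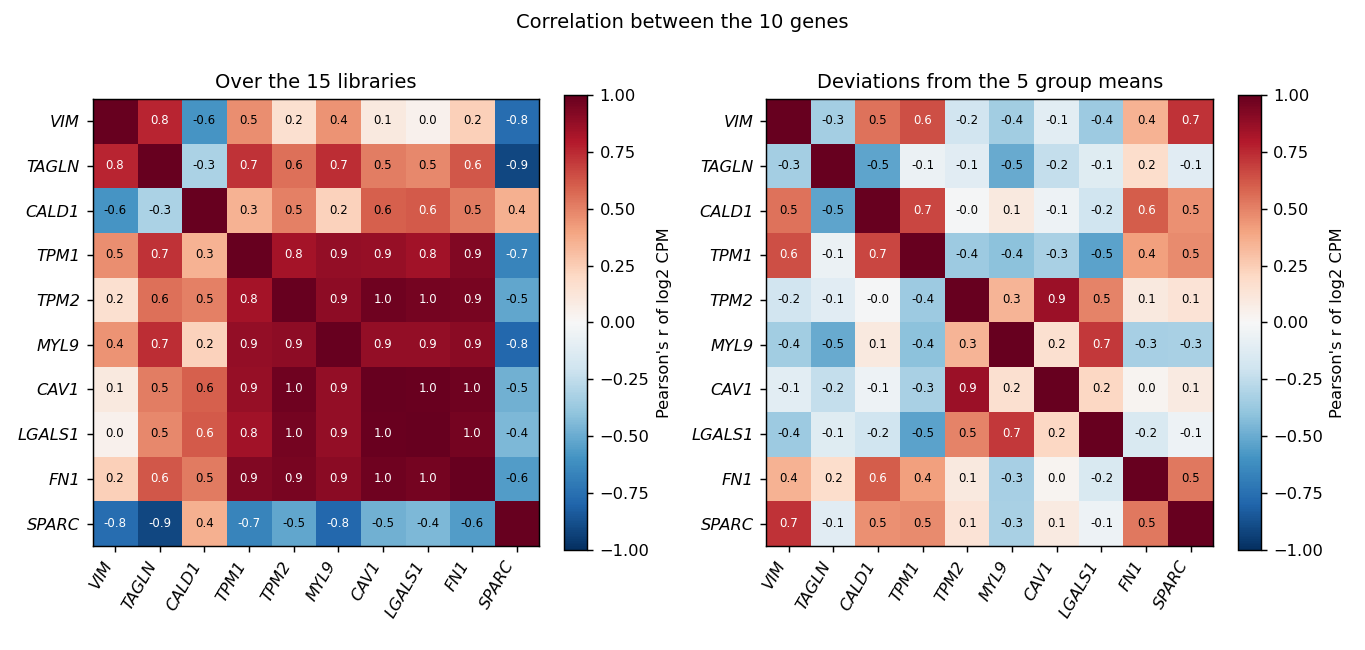
Pearson's r between the log2 CPM values of the 10 genes, on the left over the 15 libraries and on the right for deviations from the 5 group means, with the colour bar from -1 to 1. On the left FN1, CAV1, TPM2 and LGALS1 form a block of r at or above 0.946. On the right, of these pairs, CAV1 with TPM2 keeps a high r (0.85), with 7 to 33 TPM2 reads in SCC15 +YBX1.

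For each gene the genes most like it over the 15 libraries, among those above the median level, were also found. The closest were S100A2 and SDC1 to CAV1 (r = 0.996 for each), SEMA4B and TINAGL1 to FN1 (0.994 and 0.993), and SDC1 and CAVIN1 to LGALS1 (0.991 and 0.989). ALG3 and CKAP4 came closest to MYL9 (0.980 for each), LGALS3BP and LYPD3 to TPM2 (0.979 and 0.978), and GNAI3 and TMEM51 to TPM1 (0.969 and 0.967). For VIM they were DPYSL3 and DCAF4 (0.959 and 0.956), for CALD1 STK4 and CDK6 (0.959 and 0.958), for TAGLN PLOD1 and TMEM167B (0.958 for each), and for SPARC COX10 and NDC1 (0.956 and 0.939). These 15 libraries come from 3 lines, so the likeness is mainly one of levels across the lines.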

How the data were processed

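RNA of 15 libraries (5 groups of 3) was sequenced by the authors as QuantSeq 3′ FWD libraries with single-end 75-base reads. Reads were trimmed (Cutadapt), aligned to hg38 (HISAT2) and counted per gene (featureCounts), and the counts were normalised and filtered (limma) in Galaxy. Whether counting was strand-specific is not given in the sources used here. The deposited values are log2 CPM in a cell line table and a YBX1 table, each with 12995 genes, of which 12719 have a symbol. For the 6 libraries that stand in both, values differ by no more than 5e-08. With the lowest value of a library read as 0 reads, and with the 0.5 reads that the authors added to each count, 100% of values came out as whole reads (tolerance 0.01). Reads on genes ran from 4075290 to 6118501 per library. Floors cover counting error only.

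The sample labels gave the groups and the replicate numbers. The comparisons were two-sided limma tests (version 3.58.1, R 4.3.3, with a variance trend in eBayes) on the log2 values. P-values were adjusted by Benjamini-Hochberg over every gene of the table, and an adjusted p under 0.05 was called. Line comparisons used the 9 libraries of the cell line table and knockdown the 12 of the YBX1 table. The code was tested on simulated data. Replicate pairs differed beyond sampling noise (chi-square per degree of freedom 3.99 to 80.8), so none was merged. Same-numbered +YBX1 and –YBX1 libraries of a line deviated together in every pair (r of 0.117 to 0.498 over 6497 genes). Between lines, r of same-numbered libraries ran from -0.222 to 0.467, the highest for OKF6 with SCC25 –YBX1. Differently numbered libraries were not compared and no label states a pairing, so the pairs within a line are an assumption.

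The members and lists were chosen with earlier results of these data known. Named genes are the 10 members, YBX1, per list and line comparison the 2 called genes with the largest change in each direction (without overlap and above the median level), and the 2 genes most like each member. Keratinocyte and other markers named for the check of SCC15 were picked after their values were seen. A list of leukocyte markers is not reported here. Promoters are from the RefSeq table (GRCh38.p14), gene positions from GENCODE v44 on hg38. Pieces of 75 bases, every 5 bases over the last 500 bases of each main transcript, were mapped with minimap2 2.31. Figures used matplotlib 3.10.9. The alternatives tried are given with their effect at the end.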

Additional observations from a re-analysis of the deposited data

How the results depend on the processing

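The number of the 10 genes called kept within 1.5 times the values given in every alternative tried, except that SCC25 against OKF6, with 5 called, gave 5 to 8 when each library was left out, the 8 without OKF6 replicate 1. Over all alternatives the calls were 8 to 9 for SCC15 against SCC25, 7 to 9 for SCC15 against OKF6 and 4 to 8 for SCC25 against OKF6, and 0 throughout for knockdown. With only genes above the first quartile of expression, MYL9 had no value. With the replicate number as a block, 9, 8 and 6 genes were called between the lines, FN1 being the added call for SCC25 against OKF6. Left-out libraries aside, 3 pairs of gene and setting became called for SCC25 against OKF6, among them FN1 with this block and with voom weights. For the knockdown, the block called 0 of the 10 genes, as did a block within each line, an alternative chosen after the data were seen. It changed no other call. Over all genes, a threshold of 0.01 took the calls of SCC25 against OKF6 from 3923 to 2206, and without SCC25 –YBX1 replicate 2 the knockdown in SCC25 had 6 genes called, none of them among the 10.

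Signs turned only for differences that were not called, and the cause was not tested. TAGLN in SCC15 minus OKF6 was -0.0092 after quantile normalization. CAV1 in SCC25 minus OKF6 ran from -0.31 to 0.12 over the left-out libraries. In the SCC15 knockdown VIM was -0.015 with library medians set equal, and TPM2 was -0.0087 with medians set equal, -0.11 after quantile normalization and -0.012 with 2 reads added. Over the left-out libraries the knockdown change in SCC25 ran from -0.48 to 0.29 for VIM, -0.23 to 0.29 for FN1, -1.32 to 0.95 for SPARC, -0.53 to 0.31 for TAGLN, -0.25 to 0.17 for CALD1, -0.18 to 0.13 for TPM1, -0.28 to 0.070 for TPM2, -0.20 to 0.85 for MYL9 and -0.25 to 0.50 for LGALS1. In SCC15 it ran from -0.062 to 0.077 for VIM, -0.26 to 0.46 for FN1, -0.14 to 0.63 for SPARC, -0.29 to 0.45 for CAV1, -0.58 to 0.032 for TAGLN, -0.17 to 0.16 for CALD1 and -0.56 to 0.58 for TPM2. A planned comparison of the TPM1 and TPM2 proteins was not run. Depth limits MYL9 in SCC15 and SPARC in SCC25, where counts of 0 to 6 reads set the size but not the direction of the differences between lines. An exception is MYL9 in SCC15 against OKF6, where OKF6 replicate 1 had 1 read and the direction rests on replicates 2 and 3. Libraries of a group may be technical repeats, and 3 lines give 1 line of each kind.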
